A study of Homo sapiens with 19 samples.

Results

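The genes described here are the mitochondrial ribosomal protein genes. They were taken as all protein-coding genes whose symbol is MRPL or MRPS followed by a number. In the GENCODE annotation on hg19 (GRCh37) this gave 78 genes, 49 MRPL and 29 MRPS, among 19881 protein-coding genes. Each gene was searched for ERRα ChIP-seq peaks in the 8 deposited peak lists. A gene was called bound at its promoter in a list when the centre of a peak lay within 1 kb of any of its annotated transcription starts, and a wider window of 20 kb was used as well.

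The cells are human HER2-amplified breast cancer lines. SKBr3 and BT-474 cells were kept in serum-free medium for 24 h and then given 100 µM EGF, 100 µM heregulin (HRG) or vehicle (PBS) for 90 min, doses as the labels give them. In addition, untreated parental SKBr3 cells (pSKBr3) were set against lapatinib-resistant SKBr3 cells (LRSKBr3), which were derived by long exposure to the EGFR/HER2 inhibitor and were kept in 2 µM lapatinib. Drug presence and resistance thus came together in the LRSKBr3 list and cannot be told apart. Each SKBr3, pSKBr3 and LRSKBr3 list pools 2 ChIP libraries called against 1 input library. A BT-474 list rests on 1 ChIP library, and the 3 BT-474 lists share the vehicle input. With 1 list per condition there is no replicate spread, so no difference between conditions was tested, and the lists hold no tag counts, so the depth behind them is unknown. They held between 22539 peaks (pSKBr3) and 41271 peaks (BT-474 HRG). Intervals given below are 95% Wilson intervals over genes. They treat genes as independent and say nothing of how cultures vary.

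Mitochondrial ribosomes translate the few proteins encoded by mitochondrial DNA, all of them subunits of the oxidative phosphorylation complexes. Their RNA is mitochondrial, but every one of their proteins is encoded in the nucleus and imported. MRPL genes mostly encode proteins of the large subunit, which forms peptide bonds, and MRPS genes mostly those of the small subunit, which decodes the mRNA. Some are counterparts of bacterial ribosomal proteins and others were added in the mitochondrial lineage. The MRPS36 protein carries a ribosomal name but is known as a part of the α-ketoglutarate dehydrogenase complex. ERRα is an orphan nuclear receptor known for its binding to genes of mitochondrial energy metabolism. It binds as a monomer or dimer to the ERR response element (ERRE), searched here as the word TCAAGGTCA and, with its first letters left out, as the core AAGGTCA that lies within it.

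Full ERRE words were rare at the peaks of these genes. On both strands, 4 genes had TCAAGGTCA anywhere in a promoter peak of any list, and they are shown because each is the only such match of its gene. The share of promoter peaks that held it was below that of all promoter peaks in each of the 8 lists, with 5.45% against 9.92% on SKBr3 vehicle, 8.33% against 13.9% on BT-474 EGF and 5.56% against 7.53% in LRSKBr3 cells. Capitals mark the word, coordinates are hg19, and the strand is that on which the word reads as printed.
MRPS6, chr21:35494728-35494756, minus strand: cttcagtatgTCAAGGTCAaactgtagac
MRPS24, chr7:43908010-43908038, minus strand: ctgggcactcTCAAGGTCActctgagatg
MRPL49, chr11:64888631-64888659, minus strand: acttaagattTCAAGGTCAaatatctgca
MRPS21, chr1:150264519-150264547, plus strand: aatgacttctTCAAGGTCAtaggcctgat

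Only in MRPS6 and MRPS24 did the word come within 100 bp of a peak centre. The MRPS6 word lay in the promoter peak of all 8 lists and within 100 bp of the centre in 7 of them, at 268 bp downstream of an alternative start inside the gene. The MRPS24 word, 724 bp downstream of the nearest start, also lay in the peak of all 8 lists but was within 100 bp of the centre in the 3 BT-474 lists alone. In MRPL49 it was centred at -1010 bp from the nearest start (upstream), inside the peaks of its 5 lists, and 518 bp or more from their centres. In MRPS21 the word lay at -1748 bp, inside the peak of 3 lists and at least 1094 bp from their centres.

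Shorter core words were more common. AAGGTCA occurred on either strand within 300 bp of the canonical start in 13 of the 78 genes (16.7%), against 5.93% of all protein-coding genes. Within 150 bp it was 3 genes (3.85%, against 2.48%). The words are printed for 11 of these genes, which carried 12 of them, to show the letters around the word. The words of the other 2 genes are not shown, and the counts that follow the sequences cover the 12 printed.
MRPL1, chr4:78784180-78784206, minus strand: aacccttcatAAGGTCActtttaagta
MRPL2, chr6:43026896-43026922, plus strand: tgccttatccAAGGTCAcggacctgca
MRPL12, chr17:79670500-79670526, minus strand: cgcgggctggAAGGTCAcacgcggttc
MRPL34, chr19:17416912-17416938, plus strand: gttgagcgccAAGGTCAcccagcgccc
MRPL34, chr19:17416933-17416959, minus strand: gacggcgagaAAGGTCAgacggggcgc
MRPL47, chr3:179322154-179322180, plus strand: cgacttctccAAGGTCActcactcctc
MRPS5, chr2:95787311-95787337, plus strand: ggacgcgcgcAAGGTCAcacagcggct
MRPS6, chr21:35446041-35446067, minus strand: gctctgagggAAGGTCActtacccgct
MRPS21, chr1:150266038-150266064, minus strand: ggcctctgagAAGGTCAgcccaatttc
MRPS22, chr3:139063036-139063062, minus strand: gaaagtccggAAGGTCActtaccggcc
MRPS25, chr3:15106604-15106630, minus strand: ggactccgtgAAGGTCAtgacagtgaa
MRPS33, chr7:140714708-140714734, minus strand: gtgggtgaggAAGGTCAggtctaggta

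The letters around the word differed from gene to gene, and 11 of the 12 words printed lay downstream of the canonical start. Their distance from that start exceeded 150 bp in 10 of the 12. Of these words, 11 lay inside the promoter peak of every list that called the gene. The exception was MRPS6, whose strongest promoter peaks were at its internal start.

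At the promoter, 55 of the 78 genes (70.5%, 59.6 to 79.5) had a peak in SKBr3 cells on vehicle, against 23.6% of all protein-coding genes. On EGF the number was 49 (62.8%, 51.7 to 72.7), beside 22.6% of all genes. On HRG it was 63 (80.8%, 70.7 to 88.0), beside 36.1%. In BT-474 cells 43 genes (55.1%, 44.1 to 65.7) had a promoter peak on vehicle, with 19.6% of all genes. The BT-474 EGF list called 24 (30.8%, 21.6 to 41.7), with 11.5% of all genes, and the BT-474 HRG list 35 (44.9%, 34.3 to 55.9), with 17.0%. Parental pSKBr3 cells had 65 (83.3%, 73.5 to 90.0) against 31.8%, and LRSKBr3 cells 70 (89.7%, 81.0 to 94.7) against 42.2%. In each of the 8 lists the share of mitochondrial ribosomal protein genes was above that of all genes, by a ratio between 2.13 and 2.99. The order of the lists was led by LRSKBr3, and the 3 BT-474 lists had the lowest counts. Neighbouring counts in that order had overlapping intervals. The lists differ in length, from 22539 to 41271 peaks. Cut to an equal size, LRSKBr3 and pSKBr3 both called 65 genes, and BT-474 HRG called 22, below BT-474 EGF at 23.

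**Figure D1:**
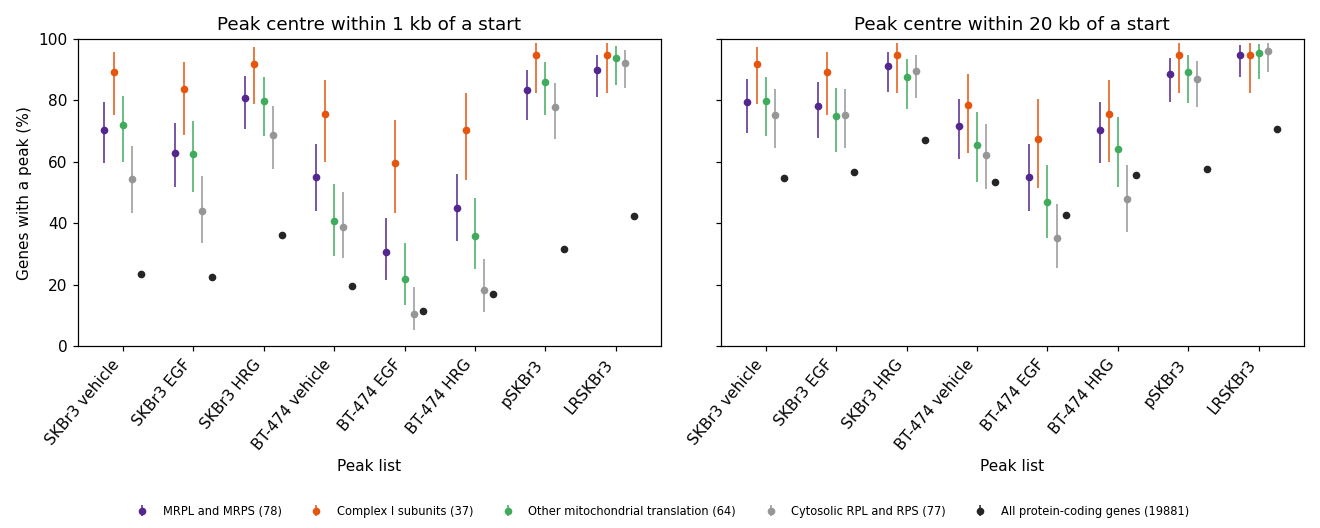
Percentage of genes with an ERRα peak centre within 1 kb (left) or 20 kb (right) of a start, on the y axis, in each of the 8 peak lists on the x axis, for 5 gene groups. Points are shares and bars are 95% Wilson intervals; the purple points of the MRPL and MRPS genes lie above the black points of all genes in every list of the left panel, from 30.8% in BT-474 EGF to 89.7% in LRSKBr3, and below those of the complex I genes.

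The wider window separated these genes from others less. Within 20 kb of a start, a peak was found for 62 of the 78 genes on SKBr3 vehicle (54.6% of all genes), 61 on EGF (56.8% of all) and 71 on HRG (67.0% of all). In BT-474 cells the numbers were 56 on vehicle (53.4% of all), 43 on EGF (42.7% of all) and 55 on HRG (55.8% of all). In pSKBr3 cells 69 genes (57.6% of all) and in LRSKBr3 cells 74 genes (70.6% of all) had one. As percentages the 20 kb shares of the mitochondrial ribosomal protein genes ran from 55.1% to 94.9%. On SKBr3 vehicle, 55 of the 95 peaks within 20 kb of these genes were promoter peaks. The strongest promoter peaks were centred closer to a start than those of all genes. The median unsigned distance from peak centre to nearest start was 88 bp in the SKBr3 vehicle list, 89 bp with EGF, 79 bp with HRG, 79 bp in pSKBr3 and 94 bp in LRSKBr3 cells. Over all genes with a promoter peak the same medians were 219, 241, 194, 144 and 181 bp. In BT-474 cells the distances were longer: on vehicle 162 bp (321.5 bp over all genes), on EGF 204.5 bp (379.5 bp over all genes) and on HRG 261 bp (403 bp over all genes). BT-474 peaks were also wider, with a median width at these promoters of 2187 bp on vehicle against 1652 bp on SKBr3 vehicle. In pSKBr3 cells, 60 of the 65 centres (92.3%) were within 250 bp of a start, beside 65.7% over all genes. That share was the highest of the 8 lists, and the lowest was 48.6% on BT-474 HRG (33.9% over all genes).

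**Figure D2:**
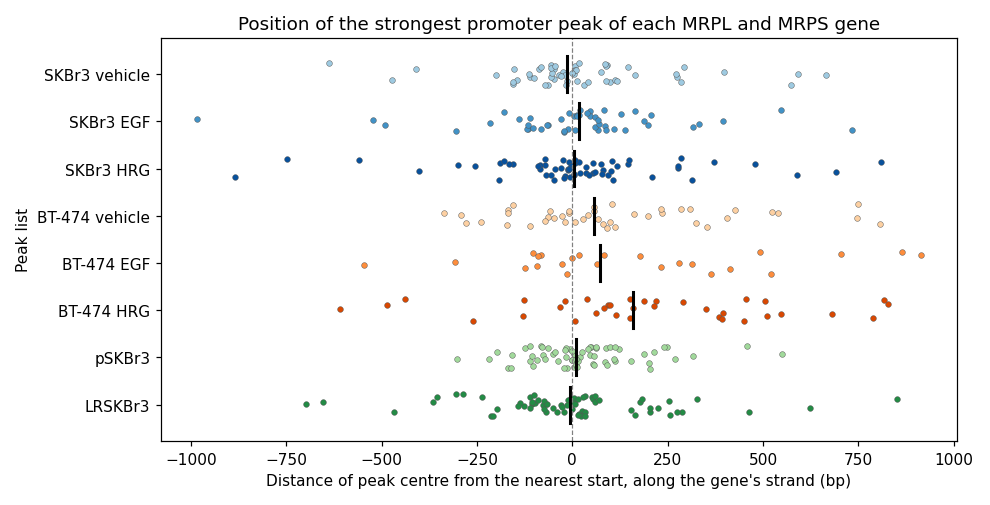
Signed distance in bp from the nearest transcription start to the centre of the strongest promoter peak of each MRPL and MRPS gene (x axis, negative upstream), for each of the 8 lists (y axis); points are genes and black bars medians. Centres gather around the nearest start in the SKBr3-derived lists, with medians between -14 and 18 bp, and scatter towards the gene body in the BT-474 lists, with a median of 159 bp on HRG. From the outermost start only, these medians became 61.5 to 163 bp and 454 bp.

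Measured across lists, 21 genes (26.9%, 18.3 to 37.7) had a promoter peak in all 8, against 6.63% of all protein-coding genes. With the limit at 500 bp in place of 1 kb the number was 13, and with the outermost start only it was 17. The 21 genes were MRPL1, MRPL2, MRPL4, MRPL10, MRPL12, MRPL15, MRPL21, MRPL34, MRPL35, MRPL36, MRPL41, MRPL47, MRPS5, MRPS6, MRPS16, MRPS22, MRPS24, MRPS25, MRPS30, MRPS31 and MRPS36. No list called 4 genes (5.13%), where 47.6% of all genes were called in none. A further 10 genes (12.8%) were called in 7 lists, 9 (11.5%) in 6 and 11 (14.1%) in 5, beside 3.46%, 3.91% and 6.14% of all genes. Called in 4, 3, 2 and 1 lists were 5 (6.41%), 6 (7.69%), 7 (8.97%) and 5 genes (6.41%). Of all genes, 5.37%, 8.43%, 7.79% and 10.7% were in these classes, so the member shares there were near or below them. In the 5 lists from SKBr3 cells and their derivatives, 47 genes (60.3%) were called throughout, beside 15.4% of all genes. The 3 BT-474 lists jointly called 21 genes (26.9%, beside 9.5% of all genes), which were the same 21 that all 8 lists called.

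**Figure D3:**
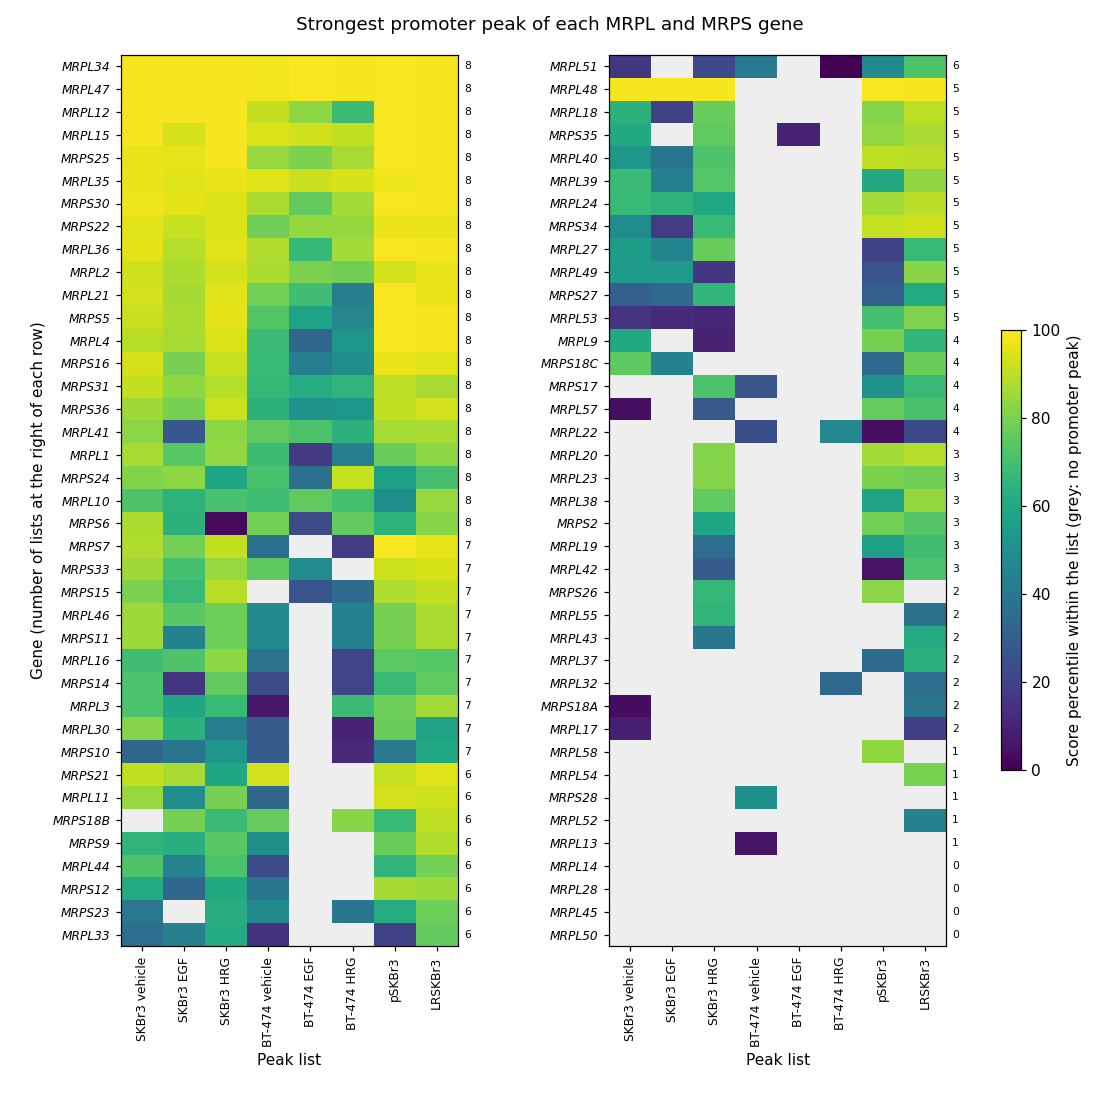
Score percentile (colour, 0 to 100) of the strongest promoter peak of each of the 78 MRPL and MRPS genes (rows, in 2 columns) in each of the 8 peak lists (x axis); grey means no promoter peak, and the number at the right of a row counts lists with one. The 21 genes at the top are coloured throughout, grey fields gather in the BT-474 columns, and the 4 genes at the bottom are grey in every list.

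Scores were compared only as percentiles within a list, because the MACS score, −10 log10 of the P value of a peak, depends on library depth. Percentiles in turn depend on the length of a list, since added weak peaks raise the percentile of the same peak, so values of 1 gene in different lists are set side by side without a test. A percentile of 50 is then the middle of all peaks of that list, and the many peaks that share a score of 3100 stand between 98.3 and 98.9. The median percentile of the strongest promoter peak was 80.9 over the 55 genes on SKBr3 vehicle, where all genes with a promoter peak had 62.5. It was 70.4 against 57.4 on EGF and 75.5 against 60.4 on HRG. In pSKBr3 cells it was 80.2 against 64.3, and in LRSKBr3 cells 85.1 against 64.0. The SKBr3-derived lists thus all placed these genes above the usual promoter peak. In BT-474 cells the medians were 67.4 against 55.4 on vehicle and 68.3 against 62.0 on EGF, but 53.0 against 58.1 on HRG. Members spread widely, from 3.35 to 98.6 on SKBr3 vehicle and from 18.4 to 98.7 in LRSKBr3 cells.

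**Figure D4:**
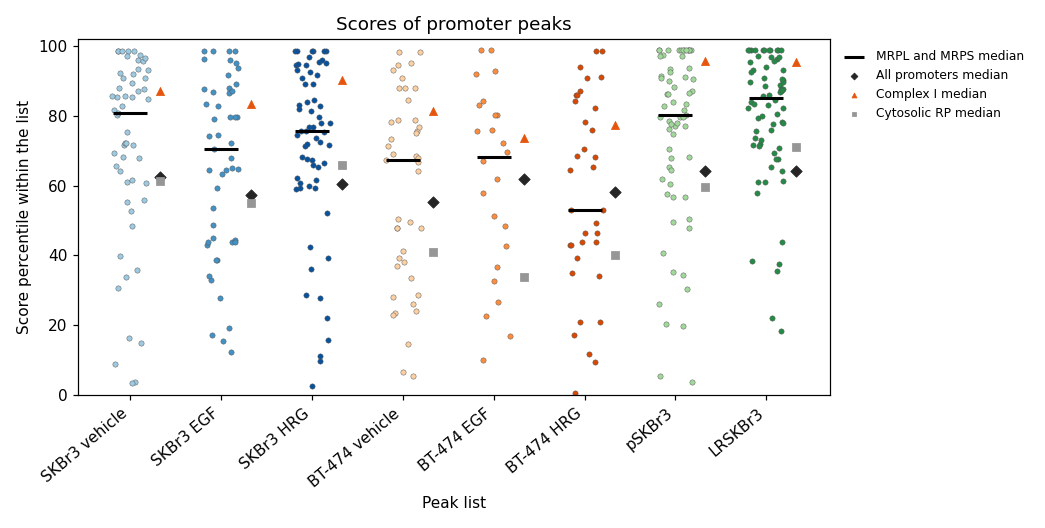
Score percentile within each list (y axis) of the strongest promoter peak of every MRPL and MRPS gene that had one (points), for the 8 lists (x axis). Black bars are medians of these genes, diamonds medians of all genes with a promoter peak, triangles of complex I and squares of cytosolic ribosomal protein genes; the bar is above the diamond in 7 lists and below it on BT-474 HRG (53.0 against 58.1).

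Highest by median percentile over the 8 lists were MRPL34, MRPL47, MRPL12, MRPL15 (a median of 96.5), MRPS25, MRPL35, MRPS30, MRPS22, MRPL36 and MRPL2. MRPL34, a bacterial-type protein of the large subunit, had a score of 3100 in every list. Its peak spanned chr19:17415715-17417798 on SKBr3 vehicle, where the centre lay in a coding exon 75 bp from a start, and it covered both printed core words. MRPL47, which sits near the exit of the nascent peptide, also scored 3100 in every list, with centres from -197 to 38 bp of the start. Its SKBr3 vehicle peak was at chr3:179321235-179323735, and the complex I gene NDUFB5 starts in the opposite direction 52 bp away. The centre was closer to that other start in 6 of the 8 lists, so the peak cannot be given to either gene alone.

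MRPL12, which encodes a stalk protein also known to bind the mitochondrial RNA polymerase, separated the cell lines. Its peak scored 3100 in the SKBr3 vehicle, EGF, HRG, pSKBr3 and LRSKBr3 lists. In BT-474 cells its percentile was 90.8 on vehicle, 83.2 on EGF and 68.5 on HRG, all under the values of the SKBr3-derived lists. The peak centre moved as well, from -24 bp on SKBr3 vehicle (upstream, chr17:79669075-79671672) to 454 bp on BT-474 HRG, in an intron. MRPS25, of the small subunit, had percentiles of 96.5 on SKBr3 vehicle, 96.2 on EGF, 98.6 on HRG, 98.8 in pSKBr3 and 98.7 in LRSKBr3 cells, with 84.6, 80.3 and 87.0 on BT-474 vehicle, EGF and HRG. Again the SKBr3-derived values were all above the BT-474 values. The core word printed for it lay within 100 bp of the peak centre in 4 lists, as near as 5 bp.

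Apart from the tied scores of MRPL34 and MRPL47, MRPL35 varied least among the 21 genes called in all lists. Its percentiles were 97.2, 95.0 and 96.8 on SKBr3 vehicle, EGF and HRG, 95.0, 91.9 and 93.8 on BT-474 vehicle, EGF and HRG, and 97.5 and 98.7 in pSKBr3 and LRSKBr3 cells. Its centres lay 36 to 232 bp downstream of the nearest start, mostly in an intron (chr2:86425870-86427593 on SKBr3 vehicle). MRPS30, a large-subunit protein despite its symbol, had 97.4, 96.0, 94.8, 87.8, 75.8, 86.0, 98.8 and 98.7 in the same order of lists. MRPS22 had 95.6, 91.6, 94.4, 78.1, 84.2, 84.1, 97.1 and 96.7, and here too each BT-474 value was the lower.

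MRPL36 and MRPL2 completed the group. MRPL36 percentiles were 96.0, 89.0 and 95.5 on SKBr3 vehicle, EGF and HRG, 88.0, 67.0 and 86.0 on BT-474 vehicle, EGF and HRG, and 98.8 and 98.7 in pSKBr3 and LRSKBr3 cells. Its peaks were upstream of an outer start, some distance from the canonical one, and held a pair of core words there that are shown because they lay next to the peak centres.
MRPL36, chr5:1801535-1801561, minus strand: cagccggcagAAGGTCAtcgccgccgc
MRPL36, chr5:1801633-1801659, plus strand: gaccggggagAAGGTCAcgcacactgg
The first was within 100 bp of the centre in 6 lists and the second in 5, the nearest at 5 bp. MRPL2, a protein near the peptide-bond-forming centre, had percentiles of 92.3, 87.9 and 93.1 on SKBr3 vehicle, EGF and HRG, 87.9, 80.3 and 78.3 on BT-474 vehicle, EGF and HRG, and 93.4 and 96.8 in pSKBr3 and LRSKBr3 cells. KLC4 starts 197 bp from it on the other strand, but no centre was closer to KLC4.

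MRPS6, which had the full ERRE word, varied widely in score. Its percentile was 87.8 on SKBr3 vehicle, 64.3 on EGF and 2.58 on HRG, where the score of 52.17 was just over the lowest in the lists. It was 78.8, 22.7 and 76.0 on BT-474 vehicle, EGF and HRG, and 64.5 and 82.3 in pSKBr3 and LRSKBr3 cells. The MRPS6 values thus ran from near the bottom to the upper part of the scale, and its HRG call in SKBr3 is among the weakest of any here. MRPS24, the other gene with the ERRE near a centre, had 80.9, 82.8 and 59.1 on SKBr3 vehicle, EGF and HRG, 71.3, 36.8 and 91.1 on BT-474 vehicle, EGF and HRG, and 56.9 and 70.6 in pSKBr3 and LRSKBr3 cells. MRPL49 was called in the 5 SKBr3-derived lists at 55.2, 53.7, 15.8, 26.0 and 82.1, and in no BT-474 list.

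Each gene called in all lists but 1 missed a BT-474 list. For MRPL3, MRPL16, MRPL30, MRPL46, MRPS7, MRPS10, MRPS11 and MRPS14 it was the EGF list, for MRPS15 the vehicle list and for MRPS33 the HRG list. MRPS7 ranged most widely, with 87.9, 79.0 and 90.8 on SKBr3 vehicle, EGF and HRG, 98.8 in pSKBr3 and 96.2 in LRSKBr3 cells, but 36.9 and 17.3 on BT-474 vehicle and HRG. MRPS33 was at 48.4 on BT-474 EGF, 75.0 on BT-474 vehicle and between 70.4 and 93.9 in the SKBr3-derived lists, and its core word was within 100 bp of the centre in 6 lists. MRPS15 was at 26.6 and 35 on BT-474 EGF and HRG and at 67.8 to 90.7 elsewhere. MRPL46 and MRPS11, which start on opposite strands, 65 bp from the canonical MRPL46 start to the nearest MRPS11 start from it, shared a promoter peak in all 7 lists that called them. Their shared peaks are not separate observations. On SKBr3 EGF their strongest promoter peaks differed, at 74.4 for MRPL46 and 43.8 for MRPS11. MRPL3, MRPL16, MRPL30, MRPS10 and MRPS14 were at 6.67, 38.1, 28.6, 28.1 and 23 on BT-474 vehicle. In LRSKBr3 cells the same genes, in that order, stood at 86.0, 73.5, 57.8, 60.9 and 75.7.

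The genes called in few lists were of several kinds. MRPL13 (5.58) and MRPS28 (50.3), both on chromosome 8, were called on BT-474 vehicle alone, and were the only members called in BT-474 cells and not in any SKBr3-derived list. MTBP starts 250 bp from MRPL13 on the other strand, and the centre of the MRPL13 call was closer to MTBP. MRPL52 (43.9) and MRPL54 (79.9) were called in LRSKBr3 cells alone. MRPL58, which encodes a peptidyl-tRNA hydrolase built into the large subunit, was called in pSKBr3 cells alone (83.4). That last call depended on the position of the peak centre. In the SKBr3 vehicle, EGF and HRG lists and in LRSKBr3 cells, peaks of 5055 to 6190 bp covered the MRPL58 start with percentiles of 94.3 to 98.7, but their centres lay upstream, between -1679 and -1226 bp.

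Of the 7 genes called in 2 lists, MRPL43 (39.4 and 61.2) and MRPL55 (65.3 and 37.5) were called on SKBr3 HRG and in LRSKBr3 cells. MRPL17 (8.93 and 18.4) and MRPS18A (3.35 and 38.4) were called on SKBr3 vehicle and in LRSKBr3 cells. MRPL37 (35.2 and 64.2) was called in pSKBr3 and LRSKBr3 cells, MRPS26 (66.5 and 82.6) on SKBr3 HRG and in pSKBr3 cells, and MRPL32 (34 and 35.6) on BT-474 HRG and in LRSKBr3 cells. All but MRPL43, MRPL55, MRPL37 and MRPS26 stayed under the middle of the scale in both of their lists. TWNK, the mitochondrial helicase gene, starts 39 bp from MRPL43 on the other strand, so their peaks (chr10:102746748-102747820 on SKBr3 HRG) are common to both genes.

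MRPL14, MRPL28, MRPL45 and MRPL50 had no promoter peak in any list. For MRPL45 (chr17:36452989-36479100), known to lie near the exit of the peptide tunnel, and MRPL50 (chr9:104149915-104160900) no list held a peak within 20 kb either. MRPL28 had a peak within 20 kb in all 8 lists, and on SKBr3 vehicle, EGF and HRG it scored 3100 and lay upstream (-12208 bp and chr16:432578-434416 on vehicle). MRPL14, at a contact between the subunits, had one in every list but pSKBr3. On BT-474 EGF that MRPL14 peak was centred 1016 bp from the start and thus just outside the 1 kb limit.

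By structural class, the 30 counterparts of bacterial large-subunit proteins had 21 genes called on SKBr3 vehicle, 18 on BT-474 vehicle and 27 in LRSKBr3 cells, and 11 of them in all 8 lists. The 21 large-subunit proteins specific to mitochondria had 12, 5 and 18 in these lists, and 2 of them, MRPL41 and MRPS30, in all 8 (9.52%). In the small subunit, the 16 bacterial-type proteins had 13, 13 and 15, and 4 in all lists. The 10 mitochondria-specific proteins of the small subunit had 8, 6 and 9, and 3 in all lists. In BT-474 cells the mitochondria-specific large-subunit proteins had 5 of 21 (23.8%) on vehicle, 2 on EGF and 4 on HRG. For the bacterial-type proteins of the same subunit it was 18 of 30 (60.0%), 11 and 16. In the small subunit the mitochondria-specific proteins had 6 of 10 on BT-474 vehicle, 5 on EGF and 5 on HRG. The bacterial-type proteins of the small subunit had 13 of 16, 5 and 9. By share, the mitochondria-specific proteins of the small subunit were thus lower on vehicle and HRG but higher on EGF. Differences between the classes were not tested. In the same 3 lists all protein-coding genes stood at 19.6%, 11.5% and 17.0%, and they stood at 23.6% on SKBr3 vehicle, 42.2% in LRSKBr3 cells and 6.63% in all 8 lists. MRPS36 was called in all 8 lists, with percentiles from 51.4 to 93.2.

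Growth factors and resistance were compared by calls gained and lost, where a gene is gained if the treated list has a promoter peak and its control list has none. On EGF in SKBr3 cells, 1 gene was gained (4.14% of all genes) and 7 were lost (5.14% of all genes). MRPS18B was the gained gene, and its promoter was not free of a peak on vehicle: a peak 5260 bp wide covered the start at a percentile of 67.3, with its centre at -1167 bp. On EGF the peak stood at 79.5, centred at -983 bp, so the gain rests on a shift of the centre across the 1 kb limit. PPP1R10 starts 596 bp from MRPS18B on the other strand. The centre was closer to PPP1R10 in 4 of the 6 lists that called MRPS18B, so the peak cannot be given to MRPS18B alone. Lost were MRPL9, MRPL17, MRPL51, MRPL57, MRPS18A, MRPS23 and MRPS35, whose vehicle percentiles ran from 3.35 to 60.9. They made up 12.7% of the 55 genes called on vehicle, whereas 21.8% of all genes called there were lost.

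HRG in SKBr3 cells gained 11 genes (15.9% of all genes) and lost 3 (3.37% of all genes). The gained genes were MRPL19, MRPL20, MRPL23, MRPL38, MRPL42, MRPL43, MRPL55, MRPS2, MRPS17, MRPS18B and MRPS26. They made up 47.8% of the 23 genes without a vehicle peak, while 20.8% of all such protein-coding genes were gained. The highest were MRPL23 (81.9), MRPL20 (81.3) and MRPL38 (75.8), and the lowest MRPL42 (28.6). MRPL23 had a vehicle peak that covered a start, centred 2284 bp downstream at a percentile of 90.9. MRPL19, MRPL20, MRPL23, MRPL38, MRPL42, MRPS2, MRPS17, MRPS18B and MRPS26 were also called in untreated pSKBr3 cells (81.8% of the 11 gained, beside 52.8% of all genes gained on HRG), for which the labels state no serum starvation. Lost on HRG were MRPL17, MRPS18A and MRPS18C, or 5.45% of those called on vehicle against 14.3% of all.

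In BT-474 cells, EGF gained 2 genes, MRPS15 and MRPS35 (1.09% of all genes), and lost 21 (9.22% of all genes). The lost genes were 48.8% of the 43 called on vehicle, and 47.0% of all genes called on vehicle were lost. At P at most 1e-10, and also at 1e-08, EGF gained 0 genes. With lists cut to an equal size, 1 gene was gained, and 12 genes were lost of 34 called on vehicle. HRG gained MRPL32 and MRPS15 (3.24% of all genes) and lost 10 genes (5.88% of all genes), or 23.3% of those called against 29.9% of all. Another protein-coding gene starts 162 bp from MRPL32 on the other strand, and the centre was closer to it in the 2 lists that called MRPL32. MRPL11, MRPL13, MRPL33, MRPL44, MRPS9, MRPS12, MRPS17, MRPS21 and MRPS28 were missing from both treated lists, which share the vehicle list as their control. For MRPS21, peaks of 5043 and 5475 bp still covered the start on EGF (85.2) and HRG (84.6), with centres upstream at -1161 and -1020 bp.

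LRSKBr3 cells gained 7 genes over pSKBr3 cells (12.5% of all genes) and lost 2 (2.05% of all genes). Gained were MRPL17, MRPL32, MRPL43, MRPL52, MRPL54, MRPL55 and MRPS18A, which is 53.8% of the 13 without a pSKBr3 peak, against 18.3% of all such genes. The count moved with the processing: 13 were gained at P at most 1e-10 and 3 with lists cut to an equal size, where LRSKBr3 cells had no more genes than pSKBr3 cells (a difference of 0). The lost genes numbered 6 within 500 bp, beside 8 gained, and 7 with each peak given to the nearest gene only, beside 9 gained. Within 2 kb none was lost and 8 were gained. The LRSKBr3 percentiles of the 7 ran from 18.4 for MRPL17 to 61.2 for MRPL43, apart from MRPL54 at 79.9. The lost genes were MRPL58 and MRPS26, and at both of them an LRSKBr3 peak covered the start with its centre beyond 1 kb. In MRPS26 it was 7078 bp wide and stood at 80.6.

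The lines were also compared by which of them called a gene. In 28 genes at least 1 SKBr3-derived list and no BT-474 list had a promoter peak (35.9%, beside 28.9% of all genes), and in 2 the reverse was found (2.56%, beside 2.88%), so the second share was close to that over all genes. Called in all 5 SKBr3-derived lists and in no BT-474 list were 10 genes (12.8%, beside 3.88% of all genes), MRPL18, MRPL24, MRPL27, MRPL39, MRPL40, MRPL48, MRPL49, MRPL53, MRPS27 and MRPS34. MRPL48, picked out here after its values were seen, scored 3100 in all 5. The BT-474 lists held peaks of 2890.91 to 3100 that covered its start, but they were 7692 to 17653 bp wide and centred between -1317 and -1048 bp (chr11:73493901-73501592 on EGF), so its absence from them is one of position. Such cases, a covered start with the centre beyond 1 kb, numbered 12 over the 78 mitochondrial ribosomal protein genes and the 8 lists, in MRPL23, MRPL48, MRPL58, MRPS18B, MRPS21 and MRPS26.

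Other gene families give these shares a scale. Complex I, the first enzyme of the respiratory chain, had 33 of its 37 subunit genes called at the promoter on SKBr3 vehicle, 28 on BT-474 vehicle and 35 in both pSKBr3 and LRSKBr3 cells, and 20 (54.1%) in all 8 lists. Its median percentiles, 87.0 on SKBr3 vehicle and 95.5 in LRSKBr3 cells, were above those of the mitochondrial ribosomal protein genes in all 8 lists. The 77 cytosolic ribosomal protein genes had 42 on SKBr3 vehicle and 71 (92.2%) in LRSKBr3 cells, but 8 (10.4%) on BT-474 EGF and 14 (18.2%) on BT-474 HRG, and 4 in all 8 lists. On BT-474 EGF this was below the 11.5% of all genes.

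Within mitochondrial translation, the 64 genes outside the MRPL and MRPS symbols had 46 called on SKBr3 vehicle, 26 on BT-474 vehicle and 60 in LRSKBr3 cells. The 16 translation factors, which start, extend and end the peptide chain, were called in every SKBr3-derived list, and in 14, 9 and 13 cases on BT-474 vehicle, EGF and HRG. The 20 mitochondrial aminoacyl-tRNA synthetases, which charge the tRNAs, had 14 on SKBr3 vehicle, 9 on BT-474 vehicle and 18 in LRSKBr3 cells. The 23 genes of ribosome assembly and rRNA modification had 14, 2 and 21. Of all genes, 23.6%, 19.6% and 42.2% were called in these 3 lists, and the interval of the 2 of 23 on BT-474 vehicle (8.70%, 2.42 to 26.8) included the share of all genes. Of the 5 ribosomal proteins with other symbols (DAP3, PTCD3, AURKAIP1, CHCHD1 and GADD45GIP1), 2 were called on SKBr3 vehicle, 1 on BT-474 vehicle and all 5 in LRSKBr3 cells.

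Within 300 bp of the start, the core word was most frequent in the genes called in all lists. AAGGTCA stood within 300 bp of the canonical start in 10 of the 21 genes called in all 8 lists (47.6%), in 3 of the 53 called in 1 to 7 lists (5.66%) and in none of the 4 called in no list. Among all protein-coding genes the shares for the same classes were 13.4%, 5.22% and 5.56%. The 10 genes include MRPS6, whose strongest promoter peaks were at its internal start. Its word near the canonical start lay in the promoter peak of 0 lists, so word and calls there concern different starts. The 13 genes with the word had a median of 8 lists and the 65 without it a median of 5. These shares depended on the window. Within 150 bp of the start the word was found in 3 of the 78 genes (3.85%, beside 2.48% of all genes). At that width 1 of the 21 genes called in all lists held it (4.76%) and 2 of the 53 called in 1 to 7 lists (3.77%), beside 4.86% and 2.02% of all genes, so the classes were then close. Within 500 bp it was found in 19 (24.4%, beside 11.3%), with 12 of the 21 (57.1%) and 7 of the 53 (13.2%), beside 27.3% and 10.5% of all genes in the same classes.

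The full ERRE word was within 300 bp of the canonical start in none of the 78 genes and in 0.357% of all genes. The ETS word CCGGAAG was there in 34 genes (43.6%, beside 18.4% of all genes), the YY1 word AAGATGGCG in 14 (17.9%, beside 3.79%), the NRF1 word CGCATGCG in 5 (6.41%, beside 3.44%) and an AP-1 word, TGACTCA or TGAGTCA, in 3 (3.85%, beside 5.72%). Cytosolic ribosomal protein genes had a similar share of ETS words (37.7%) but the core word in 2.60%. The core word was in 13.5% of complex I genes and 9.38% of the other mitochondrial translation genes, and the ETS word in 24.3% and 51.6%. The YY1 word was in 18.9% and 9.38% of these families, and the NRF1 word in 16.2% and 9.38%. A match to such letters does not show that a factor binds there. The median GC content around these starts was 60.3%, and that of all genes 63.9%.

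**Figure D5:**
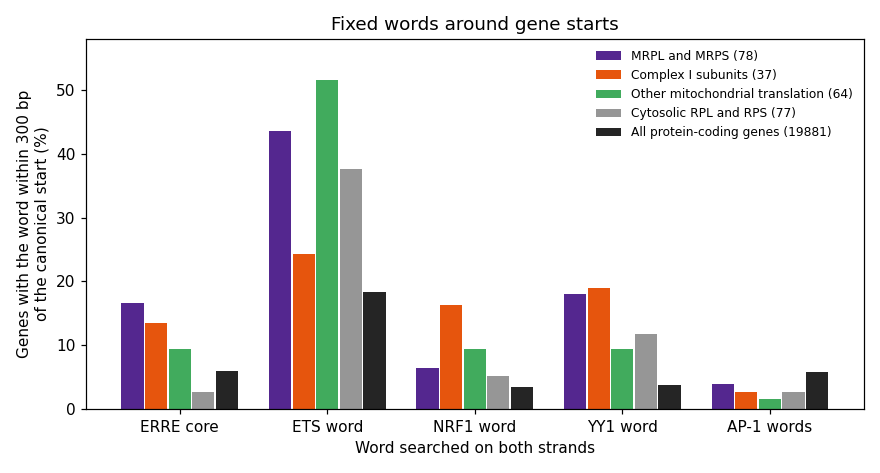
Percentage of genes (y axis) with a fixed word on either strand within 300 bp of the canonical start, for 5 words (x axis) and 5 gene groups (bars, from 0). The bars of the MRPL and MRPS genes are above those of all genes for the ERRE core (16.7% and 5.93%), ETS (43.6% and 18.4%), NRF1 (6.41% and 3.44%) and YY1 words (17.9% and 3.79%), and below for AP-1 words.

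At the peaks themselves, the ERRE word was within 100 bp of the centre in 1.82% of the promoter peaks of these genes on SKBr3 vehicle (1 of 55), where 3.66% of all promoter peaks had it. It was in 1 of 51 on EGF, 0 of 67 on HRG, 1 of 67 in pSKBr3 and 1 of 72 in LRSKBr3 cells, each below the share of all promoter peaks. In the BT-474 lists the shares were above it, with 2 of 42 on vehicle (4.76% against 3.64%), 2 of 24 on EGF (8.33% against 5.19%) and 2 of 34 on HRG (5.88% against 4.33%). On HRG in SKBr3 cells the upper end of the interval around 0 was 5.42%. These differences rest on 2 peaks or fewer a list and were not tested. For the shorter AAGGTCA the share of these genes was below that of all promoter peaks in 7 of the 8 lists (10.9% against 16.9% on SKBr3 vehicle) and above it on SKBr3 HRG (11.9% against 11.3%), again without a test.

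Some of the genes are opposed to a neighbour. Another protein-coding gene started on the other strand within 1 kb in 29 of the 78 genes (37.2%, beside 13.8% of all genes). Of these 29, 4 were called in all 8 lists, and of the other 49 genes, 17 were. Of all protein-coding genes, opposed or not, 6.63% were. Of the 132 promoter calls of the 29 genes over the lists, 45 had a centre closer to the other start. MRPL9 with OAZ3 (16 bp apart), MRPL21 with IGHMBP2 (31 bp), MRPS12 with SARS2, a mitochondrial seryl-tRNA synthetase (181 bp), MRPS27 with PTCD2 (127 bp) and MRPL49 with FAU, a cytosolic ribosomal protein gene (144 bp), are examples. The calls of MRPL9 were closer to OAZ3 in all 4 of its lists and those of MRPL49 closer to FAU in all 5, whereas MRPL21 was closer to IGHMBP2 in 1 of 8.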

How the data were processed

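ERRα ChIP-seq was deposited as 8 peak lists made from 19 ChIP and input samples. The authors aligned reads to hg19 with BWA (0.5.9, with SAMtools 0.1.18, per the submitters' processing notes) and called peaks with MACS against input at a P cutoff of 1e-05. Each list gives peak coordinates and a deposited score, −10 log10 of the P value by the authors' caller. BT-474 lists rest on 1 ChIP library and the others pool 2, so these lists allow no test between conditions, and they do not give the depth.

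Peak centres were set against all annotated starts of 19881 protein-coding genes (GENCODE lifted to GRCh37, without the mitochondrial chromosome and without models taken over from an older release). Score percentiles are average ranks within a list. Words were sought on both strands of GRCh37 within 100 bp of peak centres and 300 bp of canonical starts. The genes and lists were chosen with earlier results of these data known. Genes named are those called in no list, in 1 or 2 lists or in all but 1, those gained by both EGF and HRG in SKBr3 cells, by HRG in both lines or in LRSKBr3 cells, those with the ERRE at a promoter peak, and the 10 with the highest median percentile among those called in all lists. Others are listed as parts of counts. Alternatives concerned thresholds, windows, the start used, nearest gene only and lists of equal size. Sequences at some core words are not reported here. Words at canonical starts and their windows were added after the lists had been seen. The assignment and the word search were tested on simulated data. The software was pysam 0.24.0 for sequences, pandas 2.3.3 and numpy 2.4.6 for tables, scipy 1.17.1 for intervals and matplotlib 3.10.9 for figures, under Python 3.11.15.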

Additional observations from a re-analysis of the deposited data

Results flagged for a closer look

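The number of mitochondrial ribosomal protein genes with a promoter peak stood 8 higher on HRG than on vehicle in SKBr3 cells (63 against 55) and 8 lower in BT-474 cells (35 against 43, a difference of -8). The opposite directions drew attention here, and the difference between the lines was not tested, since each condition has 1 list. The share of all protein-coding genes differed the same way, with 36.1% against 23.6% in SKBr3 cells and 17.0% against 19.6% in BT-474 cells. Over the alternative settings the difference ran from 4 to 10 genes in SKBr3 cells and from -12 to -7 in BT-474 cells.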

How the results depend on the processing

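The share of these genes exceeded that of all genes in 8 of 8 lists under each of the 8 alternatives for the promoter count, with ratios from 1.97 to 4.12. Small counts moved. At P at most 1e-10, SKBr3 EGF gained 3 genes, BT-474 EGF 0 (also 0 at 1e-08) and LRSKBr3 13. Within 500 bp, 13 genes were called in all lists, SKBr3 EGF gained 2, SKBr3 HRG lost 5 and LRSKBr3 lost 6. Within 2 kb, or where a peak had only to overlap a start, SKBr3 EGF gained 0 and LRSKBr3 lost 0, because the centres just beyond 1 kb, or the covered starts, then count. With the outermost start only, SKBr3 EGF gained 3, and median distances became 67, 163 and 120 bp in SKBr3 vehicle, EGF and HRG, 254, 432 and 454 bp in the BT-474 lists and 103 and 61.5 bp in pSKBr3 and LRSKBr3 cells. Given to the nearest gene only, SKBr3 EGF gained 3, SKBr3 HRG lost 5 and LRSKBr3 lost 7. With lists cut to an equal size, BT-474 HRG called 22 genes, BT-474 EGF gained 1 and lost 12, and LRSKBr3 gained 3 and had no more genes than pSKBr3 (a difference of 0, against 5). Ranked among promoter peaks, the pSKBr3 median percentile was 73.7. The share of promoter peaks with the ERRE was 5.97% on SKBr3 HRG when the whole peak was searched (7.56% of all promoter peaks), and below that of all promoter peaks in 8 of 8 lists. With AAGGTCA as the word it was 10.9%, 13.7% and 11.9% on SKBr3 vehicle, EGF and HRG, 16.7% on BT-474 vehicle and 8.33% in LRSKBr3 cells, where 16.9%, 18.7%, 11.3%, 17.1% and 11.3% of all promoter peaks held it. Where no reason is given, the cause was not tested. No replicate could be left out, and no paired analysis was possible because the lists pool the replicates.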
